A study of Mus musculus with 68 samples.

Results

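The genes described here build the vesicles that carry proteins between the endoplasmic reticulum (ER) and the Golgi. The list holds 45 genes, chosen by symbol: 12 of the COPII coat and its assembly, 9 of the COPI coat, 15 cargo and retrieval receptors, 5 SNAREs and tethers, and 4 of the Arf GTPase cycle. All 45 were measured, among 13378 genes in the deposited tables. RNA came from mouse embryonic fibroblasts (MEFs), which are fibroblasts grown from embryos, treated for 4 h with 2 ug/ml of tunicamycin (TM) or with DMSO alone as the control. The 8 founder strains of the Collaborative Cross were 129 (129S1Sv/ImJ), A (A/J), B6 (C57BL/6J), CAST (CAST/EiJ), NOD (NOD/ShiLtJ), NZO (NZO/H1LtJ), PWK (PWK/PhJ) and WSB (WSB/EiJ), with 18 control and 22 TM libraries. The 5 F1 crosses, with B6 as the mother, were x129, xCAST, xNOD, xNZO and xWSB, with 14 control and 14 TM libraries. Each genotype had 2 or 3 libraries per treatment. The MEFs of a genotype were a mix of cells from several female embryos of 1 litter, so replicates are cultures of 1 cell line, and p-values measure the spread between those cultures.

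TM blocks N-linked glycosylation, and misfolded proteins then accumulate in the ER and start the unfolded protein response. Secreted and membrane proteins leave the ER in vesicles coated by COPII. The GTPase Sar1 recruits the inner coat of Sec23 and Sec24, which selects cargo, and the outer coat of Sec13 and Sec31 then bends the membrane. COPI, recruited by the GTPase Arf, carries escaped ER proteins and cargo receptors back from the Golgi. Tethers and SNAREs bring vesicles to their target membrane and fuse them with it. In yeast and mammalian cells, genes of this machinery are known targets of the unfolded protein response.

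The values are reads per gene relative to the scaled library size, called normalised signal here. They are not divided by gene length, and founder and F1 tables were scaled separately, so levels are compared within a gene and a set. Where reads could be recovered, libraries held 7091923 to 21530282 reads on genes in the founders and 6442976 to 29528457 in the crosses. All 6 genes used to check the treatment, among them Hspa5 and Ddit3, were higher with TM in both sets. Over the 8 fibroblast markers, the summed signal ran from 19910 to 54672 in founder controls and from 16917 to 48511 in founder TM libraries, with no marker at 0 in all libraries, and 4 of the 8 were lowered by TM on average. The sums of the myeloid, endothelial and epithelial markers stayed at or below 78.3 in every library, and in the founders the myeloid sum had a median of 24.6 in control and 12.9 in TM libraries. The part of other cell types in the results was not tested, and in such bulk cultures fewer cells of a type and less RNA per cell cannot be told apart. In each set 3 libraries lay far from their group over all genes: A control replicate 1, A TM replicate 2 and NZO TM replicate 3 in the founders, and xNZO control replicate 3, xWSB control replicate 1 and xWSB TM replicate 1 in the crosses. Only groups of 3 libraries could yield such a library, so groups of 2 were not checked. The 2 TM libraries of xNOD differed by an SD of 0.504 on the log2 scale, and the 2 controls of WSB by 0.523.

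Averaged over the 8 founder strains, TM raised 21 of the 45 members and lowered 3 at an adjusted p below 0.01, and 21 passed in neither direction. Over all genes tested, 20.5% were raised and 21.9% lowered. In the 5 crosses 16 members were raised and 7 lowered, against 16.9% and 18.7% of all genes. The median change of the members was 0.12 on the log2 scale in the founders and 0.03 in the crosses, where all genes had medians of -0.04 in both. In both sets the members raised were Sec23b, Sar1a, Sar1b, Preb, Copb1, Lman1, Lman2, Mcfd2, Tmed2, Tmed5, Bet1, Sec22b, Stx5a, Uso1 and Arfgap3, 15 in all. Arcn1, Copg2, Copz1, Surf4, Gosr2 and Arf4 passed the test in the founders but not in the crosses, and Tmed9 in the crosses but not in the founders. Copg1, Ergic1 and Sec13 were lowered in both, and Sec24b, Sec24c, Sec31a and Gbf1 in the crosses. Each cross carries the B6 genome and that of 1 other founder strain described here, so the sets share genomes. No library stands in both sets. A further setting, chosen after seeing the data, left out the 3 libraries of each set that lay far from their group. It gave 23 members raised and 6 lowered in the founders, and 16 and 10 in the crosses. Of all genes, 23.9% were then raised and 26.7% lowered in the founders, and 19.2% and 22.7% in the crosses. Sec24a and Copa were then also raised in the founders, Kdelr3, Ergic3 and Gbf1 lowered in the founders, and Sec23a, Kdelr1 and Kdelr3 lowered in the crosses.

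Few of these changes were large. A change of at least 1.5 fold was reached in the founders by Tmed5, Uso1 and Bet1 (background for a rise of that size 6.04% of all genes), and in the crosses by the same 3 genes (4.95%) and, downwards, by Ergic1 (5.54%). No member was lowered by that much in the founders (5.41%). The other 18 members raised in the founders changed by 1.08 fold (Gosr2) to 1.37 fold (Stx5a).

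**Figure D1:**
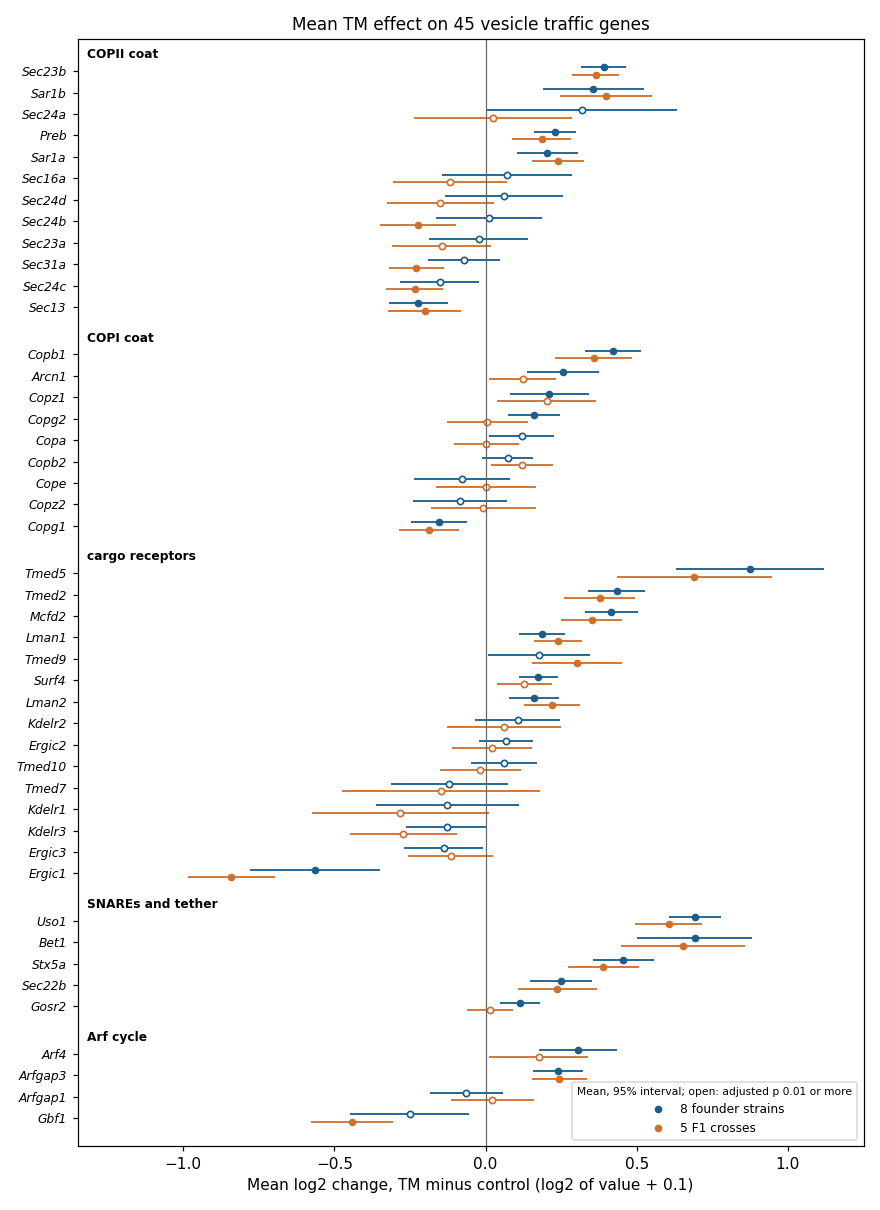
Mean log2 change with TM of each of the 45 genes over the 8 founder strains (blue) and the 5 F1 crosses (orange), with 95% intervals from limma, grouped by role. Filled points passed an adjusted p of 0.01. Tmed5, Uso1 and Bet1 lie farthest to the right in both sets and Ergic1 farthest to the left.

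The change of a gene moved with the base composition of its transcript in all 13 genotypes. Spearman's rho was computed between the log2 change and the GC content of the longest transcript of a gene. Over all genes with a mean signal of at least 2, it ran from -0.59 in x129 to -0.11 in xWSB. Among the 45 members it ran from -0.60 in 129 to -0.22 in xWSB. These are correlations across genes, which are not independent and share their libraries. The relation with exon length differed by genotype, from -0.41 in xNOD and -0.34 in WSB to 0.30 in NOD over the same genes with a mean signal of at least 2. Tmed5 (35.0% GC) and Bet1 (36.6% GC) have the most AT-rich transcripts of the list, and Ergic1 (52.5% GC) is GC-rich. Each mean change was therefore also computed after the trend over GC content and length had been removed from every library, a setting chosen after seeing the data. With it 15 members were raised and 5 lowered in the founders, and 16 and 4 in the crosses. In that setting 17.8% of all genes were raised and 19.9% lowered in the founders, and 18.5% and 17.1% in the crosses. Of the 15 members raised in both sets, 10 were raised in both with the trend removed too: Arfgap3, Bet1, Copb1, Lman2, Mcfd2, Preb, Stx5a, Tmed2, Tmed5 and Uso1. Ergic1 and Sec13 were lowered in both sets with and without the trend. Whether the trend comes from the treatment or from the libraries was not tested.

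**Figure D2:**
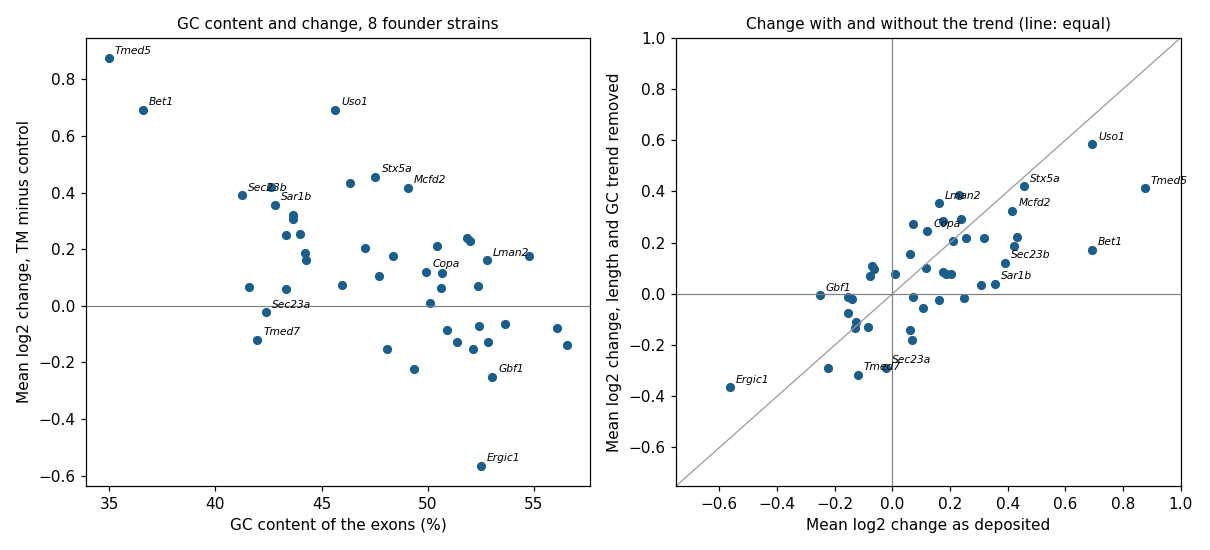
Left, GC content of the longest transcript in percent against the mean log2 change over the 8 founder strains, 1 point per member. Right, the mean change as deposited against the change after the trend over GC content and exon length was removed. Tmed5 and Bet1, at 35.0% and 36.6% GC, fall from 0.88 to 0.41 and from 0.69 to 0.17, while Uso1 stays at 0.58.

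Promoter sequence was available for 40 of the 45 genes in the RefSeq table of GRCm38.p6, as windows from 250 bases before to 50 after the start. The UPRE core TGACGTGG, which XBP1 and ATF6 bind in the unfolded protein response, was searched on both strands. It occurred in 7 of the 40 genes (17.5%). By promoter, it was in 7 of the 45 that these genes have, against 0.676% of all 32851 promoters. The short site CCACG, which the UPRE core holds on its other strand, occurred in 31 of the 40 genes (77.5%). That was 33 of their 45 promoters, against 32.8% of all promoters. The CRE, TGACGTCA, was found in Cope and Gosr2, against 1.79% of all promoters, and the longer ERSE and ERSE-II in none of the 40 (0.119% and 0.0365% of all). The 7 windows from 70 bases before to 50 after the start are printed 5′ to 3′ to show where the UPRE core lies, which is in capitals as it reads on the gene's strand.
Sec23a, chr12:59011968-59012087, minus strand: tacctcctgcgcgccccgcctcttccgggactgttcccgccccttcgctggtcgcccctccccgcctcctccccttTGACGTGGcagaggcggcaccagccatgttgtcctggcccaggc
Sec24d, chr3:123267426-123267545, plus strand: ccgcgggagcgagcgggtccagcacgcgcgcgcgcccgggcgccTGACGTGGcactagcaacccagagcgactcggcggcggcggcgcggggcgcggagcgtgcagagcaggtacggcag
Copb1, chr7:114254631-114254750, minus strand: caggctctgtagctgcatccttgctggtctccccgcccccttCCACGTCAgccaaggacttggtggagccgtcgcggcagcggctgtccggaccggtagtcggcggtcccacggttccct
Copb2, chr9:98563661-98563780, plus strand: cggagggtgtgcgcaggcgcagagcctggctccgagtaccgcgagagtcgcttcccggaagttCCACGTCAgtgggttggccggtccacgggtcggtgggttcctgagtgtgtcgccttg
Kdelr3, chr15:79516338-79516457, plus strand: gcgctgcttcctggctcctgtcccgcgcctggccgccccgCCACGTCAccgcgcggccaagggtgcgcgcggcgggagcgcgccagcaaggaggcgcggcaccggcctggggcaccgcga
Stx5a, chr19:8741354-8741473, plus strand: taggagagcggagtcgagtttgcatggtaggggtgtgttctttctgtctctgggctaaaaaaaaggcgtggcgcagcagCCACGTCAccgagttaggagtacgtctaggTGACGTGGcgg
Gbf1, chr19:46152488-46152607, plus strand: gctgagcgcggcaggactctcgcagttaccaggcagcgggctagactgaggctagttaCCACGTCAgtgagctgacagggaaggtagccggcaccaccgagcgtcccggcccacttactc
The motif began between 30 bases before and 39 bases after the start in all 7 genes, and Stx5a held it 2 times. Stx5a and Copb1 were raised in both sets, Gbf1 was lowered in the crosses, and Sec24d, Copb2 and Kdelr3 passed in neither set. Sec23a passed in neither set too. A match describes letters only and is not a binding site.

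Among the COPII genes, 4 of 12 were raised in the founders (Sec23b, Sar1a, Sar1b and Preb) and 1, Sec13, was lowered. In the crosses the same 4 were raised, and Sec13, Sec24b, Sec24c and Sec31a were lowered. Both forms of the GTPase Sar1, Preb, the exchange factor that loads Sar1 with GTP, and 1 form of Sec23 made up the rises. With the GC and length trend removed the members raised were Preb and Sec16a in the founders and Sec23b, Sar1a and Preb in the crosses, and Sec13 and Sec23a were lowered in both sets. Without that correction 20.5% of all genes were raised and 21.9% lowered in the founders, and 16.9% and 18.7% in the crosses.

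Sec23b, which activates GTP hydrolysis by Sar1 as part of the inner coat, had the largest COPII change in the founders, while in the crosses that of Sar1b was larger. In control libraries of the founder strains, the normalised signal of Sec23b was 90.1 and 90.6 in 129, 77.1, 78.3 and 79.4 in A, 74.3 and 68.98 in B6, 76.4 and 82.2 in CAST, 80.9 and 76.6 in NOD, 87.8 and 90.6 in NZO, 87.1, 92.9 and 89.6 in PWK, 64.4 and 67.1 in WSB. With TM it was 89.8, 112 and 109 in 129, 114, 88.2 and 110.2 in A, 98.6 and 94.1 in B6, 109 and 98.5 in CAST, 97.6, 103 and 102 in NOD, 125, 124 and 117 in NZO, 124, 126 and 118 in PWK, 97.9, 86.5 and 87.6 in WSB. Every TM library was above every control library of its strain in all but 129, where 89.8 lay below both controls. In the crosses the TM libraries of all 5 genotypes lay above their controls, which 4.53% of all genes also showed. For counts over only some of the strains, here and below, the share of all genes was not computed. The mean rise was 0.39 ± 0.04 (SE) on the log2 scale in the founders (adjusted p = 3.25e-10) and 0.36 ± 0.04 in the crosses (adjusted p = 3.73e-08). With the GC and length trend removed it was 0.12 in the founders (adjusted p = 0.0115, no longer past the threshold) and 0.18 in the crosses (adjusted p = 0.00642). Its paralog Sec23a went from a median of 177 in founder controls to 171 with TM, a change of -0.02 ± 0.08 (adjusted p = 0.831), and changed by -0.14 ± 0.08 in the crosses (adjusted p = 0.137). Sec23a was lowered in both sets once the trend was removed, by averages of -0.29 (adjusted p = 0.000154) and -0.35 (adjusted p = 1.25e-05).

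Sar1b rose by 0.36 ± 0.08 in the founders (adjusted p = 0.00052) and by 0.40 ± 0.07 in the crosses (adjusted p = 0.000104). The change was positive in all 13 genotypes, from 0.08 in NOD to 0.66 in 129. Its transcript is short and AT-rich, and with the GC and length trend removed the change was 0.04 in the founders (adjusted p = 0.46) and 0.05 in the crosses (adjusted p = 0.451). Sar1a rose by 0.20 ± 0.05 in the founders and 0.24 ± 0.04 in the crosses, above control in all 13 genotypes. It was 0.08 in the founders with the trend removed (adjusted p = 0.103). Preb rose by 0.23 ± 0.03 and 0.19 ± 0.05, also in all 13 genotypes, and with the trend removed the change was 0.38 and 0.39.

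Sec13, which shares the outer coat with Sec31 and also serves in the nuclear pore, was lower in all 13 genotypes. Its mean change was -0.22 ± 0.05 in the founders (adjusted p = 0.000258) and -0.20 ± 0.06 in the crosses (adjusted p = 0.00663), from -0.38 in NZO to -0.07 in WSB among the founders. In the crosses leaving out any 1 of 10 of the 28 libraries ended the call. Sec31a changed by -0.07 ± 0.06 in the founders and by -0.23 ± 0.04 in the crosses (adjusted p = 0.000162). The largest fall of Sec31a among the crosses was in xNOD, where it was lowered by 0.59 on the log2 scale (adjusted p = 0.00777). That call was lost with a pseudocount of 1, median-of-ratios scaling, a block for the replicate number, no variance trend, and edgeR on recovered reads. Sec16a, the scaffold of ER exit sites, was lowered in xNOD too, with a change of -0.70 ± 0.11 (adjusted p = 0.0075), but its mean change passed in neither set, and with the trend removed it was raised by 0.27 in the founders (adjusted p = 0.000347). Sec24a, Sec24b, Sec24c and Sec24d, the adaptors that bind cargo, changed by 0.32 ± 0.15, 0.01 ± 0.09, -0.15 ± 0.06 and 0.06 ± 0.10 in the founders, and none of them passed there. Without the 3 founder libraries that lay far from their group, Sec24a was raised by 0.34 (adjusted p = 0.0054). In the crosses Sec24b and Sec24c were lowered by averages of -0.22 ± 0.06 and -0.23 ± 0.05. Sec24b, Sec24c and Sec31a did not pass in the crosses with the GC and length trend removed (changes of -0.13, -0.06 and 0.0031).

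Of the 9 COPI genes, 4 were raised in the founders (Copb1, Copg2, Arcn1 and Copz1) and 1 in the crosses (Copb1). Copg1 was lowered in both sets. Of all genes, 20.5% were raised and 21.9% lowered in the founders, and 16.9% and 18.7% in the crosses. With the trend removed Copa, Copb1, Arcn1 and Copz1 were raised in the founders, Copa and Copb1 in the crosses, and none was lowered. Copb1 encodes the beta subunit. The normalised signal of Copb1 in the founder strains was 173 and 174 in 129, 158, 188 and 176 in A, 197 and 174 in B6, 179 and 163 in CAST, 209 and 179.7 in NOD, 191 and 190.2 in NZO, 223, 259 and 248 in PWK, 163 and 216 in WSB without treatment. After TM the libraries stood at 252, 238 and 241 in 129, 265, 215 and 224 in A, 257 and 237 in B6, 245 and 213 in CAST, 256, 238 and 232 in NOD, 276, 283 and 239 in NZO, 307, 307 and 286 in PWK, 309, 264 and 236 in WSB. The TM libraries lay above the controls in all 8 strains, as they did for 4.12% of all genes, and 3 other members, Tmed2, Stx5a and Uso1, showed the same. In the lower direction 2.99% of all genes and no member did so. On average it rose by 0.42 ± 0.04 in the founders (adjusted p = 4.23e-09), from 0.31 in PWK to 0.51 in WSB, and 0.36 ± 0.06 in the crosses (adjusted p = 4.77e-05). It was 0.19 in both sets with the trend removed, and passed in both.

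Arcn1, the delta subunit, rose by 0.25 ± 0.06 and Copz1, a zeta subunit, by 0.21 ± 0.06 in the founders, while their changes in the crosses were 0.12 ± 0.05 and 0.20 ± 0.08 and did not pass. Leaving out any 1 of 17 of the 40 founder libraries ended the call of Copz1, whose adjusted p was 0.00677. Copg2 rose by 0.16 ± 0.04 in the founders, which turned to -0.02 with the trend removed. Its paralog Copg1 was lowered by averages of -0.15 ± 0.04 and -0.19 ± 0.05, and neither passed with the trend removed (-0.07 and -0.04). Copa, the alpha subunit, Copb2, Cope and Copz2 passed in neither set. Copa changed by 0.12 ± 0.05 in the founders, and by 0.24 with the trend removed (adjusted p = 4.27e-09).

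Of the 15 receptors and cycling membrane proteins, 6 were raised and 1 lowered in each set. Lman1, Lman2, Mcfd2, Tmed2 and Tmed5 were raised in both. The all-gene shares raised and lowered were 20.5% and 21.9% in the founders, and 16.9% and 18.7% in the crosses. After removal of the trend 5 were raised and 3 lowered in the founders, and 6 and 2 in the crosses. The 3 KDEL receptors, which return escaped ER chaperones, passed in neither set without that correction. The largest rise and the largest fall of the whole list were both found in this group.

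Tmed5 belongs to the p24 family, which packs cargo such as lipid-anchored proteins into vesicles. Control libraries of the founder strains had a Tmed5 signal of 51.9 and 56.99 in 129, 42.9, 68.9 and 65.1 in A, 76.1 and 69.9 in B6, 84.8 and 82.04 in CAST, 93.3 and 65.3 in NOD, 67.9 and 59.6 in NZO, 77.1, 88.6 and 84.03 in PWK, 78.2 and 89.7 in WSB. TM libraries had 125, 123 and 130.01 in 129, 132, 116 and 71.4 in A, 151 and 134 in B6, 189 and 126 in CAST, 134, 112 and 103 in NOD, 149, 149 and 56.7 in NZO, 172, 168 and 114 in PWK, 243, 189 and 90.4 in WSB. Every TM library lay above the controls in 7 strains (share of all genes not computed), and in NZO the TM library at 56.7 lay below both controls. That library, NZO TM replicate 3, is one of those that lay far from their group. The spread among TM libraries was wide in WSB, from 90.4 to 243. The mean rise was 0.88 ± 0.12 in the founders (adjusted p = 3.97e-07) and 0.69 ± 0.12 in the crosses (adjusted p = 7.86e-05), and it was 0.90 and 0.60 without the libraries that lay far from their group. Tmed5 was induced, by at least 1.5 fold and an adjusted p below 0.01 within the genotype, in B6 (1.95 fold), PWK (1.79 fold) and x129 (1.96 fold). None of these calls within a genotype held once the GC and length trend was removed. The mean rise was then 0.41 in the founders and 0.34 in the crosses, and passed in both (adjusted p = 5.04e-06 and 0.00364).

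Tmed2, another p24 protein and among the more abundant members per length, rose with less spread. Without TM, the founder strains showed Tmed2 at 293 and 284 in 129, 283, 304 and 294 in A, 312 and 304 in B6, 327 and 307 in CAST, 381 and 303 in NOD, 295 and 305 in NZO, 309.7, 307 and 312 in PWK, 310.2 and 343 in WSB. The treated libraries showed 452, 440.2 and 392 in 129, 409.8, 488 and 352 in A, 409 and 428 in B6, 432 and 378 in CAST, 433, 413 and 384 in NOD, 415, 415 and 346 in NZO, 439.8, 401 and 358 in PWK, 582, 477 and 436 in WSB. The groups did not overlap in any of the 8 strains nor in any of the 5 crosses. Of all genes, 4.12% rose likewise in the founders and 4.53% in the crosses. The average rise was 0.43 ± 0.05 (adjusted p = 4.15e-09) and 0.38 ± 0.06 (adjusted p = 8.84e-06), and with the trend removed 0.22 and 0.16, past the threshold in both. Of the other p24 genes, Tmed9 rose in the crosses by 0.30 ± 0.07 and changed by 0.18 ± 0.08 in the founders, where it did not pass. Tmed10 changed by 0.06 ± 0.05 in the founders, and Tmed7 by -0.12 ± 0.09 in the founders and -0.15 ± 0.16 in the crosses. Tmed7 was lowered in the founders with the trend removed, by an average of -0.32 (adjusted p = 0.000247).

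Mcfd2 is the partner with which Lman1 exports coagulation factors. In control libraries of the founder strains, the normalised signal of Mcfd2 was 145 and 128 in 129, 127, 141 and 132 in A, 177 and 174 in B6, 123 and 122 in CAST, 181 and 158 in NOD, 211 and 229.96 in NZO, 129.5, 140.5 and 138 in PWK, 173 and 189 in WSB. With TM it was 228, 199 and 178 in 129, 183, 224 and 161 in A, 233 and 218 in B6, 172 and 154 in CAST, 192, 196 and 177 in NOD, 254, 256 and 277 in NZO, 201, 186 and 171 in PWK, 314, 283 and 260.1 in WSB. NOD was the only founder strain whose groups overlapped, with a TM library at 177 below the control at 181. The mean rise was 0.42 ± 0.04 (adjusted p = 2.26e-09), from 0.15 in NOD to 0.65 in WSB, and 0.35 ± 0.05 in the crosses, and with the trend removed 0.32 and 0.24. Lman1, a lectin that cycles between the ER and the intermediate compartment, rose by 0.19 ± 0.04 and 0.24 ± 0.04, and in the founders it did not pass with the trend removed (0.08, adjusted p = 0.242). Lman2, a related lectin, rose by 0.16 ± 0.04 and 0.22 ± 0.05. Surf4, a cargo receptor and the member with the highest signal per kilobase in the control libraries of the founders, rose by 0.17 ± 0.03 in the founders and changed by 0.13 ± 0.04 in the crosses (adjusted p = 0.0197). It was raised in both with the trend removed, by 0.28 and 0.24.

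Kdelr1, Kdelr2 and Kdelr3 changed by -0.13 ± 0.12, 0.11 ± 0.07 and -0.13 ± 0.07 in the founders and by -0.28 ± 0.14, 0.06 ± 0.09 and -0.27 ± 0.09 in the crosses. None of these passed, with adjusted p-values from 0.0114 to 0.609. Without the 3 cross libraries that lay far from their group, Kdelr1 (-0.37) and Kdelr3 (-0.33) were lowered in the crosses, and with the trend removed Kdelr3 was lowered there too (-0.34, adjusted p = 0.000167).

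Ergic1, a membrane protein that cycles between the ER, the intermediate compartment and the Golgi, was the member lowered most. The normalised signal of Ergic1 in the founder strains was 139.6 and 141 in 129, 55.8, 163 and 164 in A, 187 and 197 in B6, 134 and 194 in CAST, 106 and 146 in NOD, 164 and 159 in NZO, 145, 139 and 146 in PWK, 146 and 158 in WSB without treatment. After TM the libraries stood at 67.3, 91.6 and 116 in 129, 99.7, 78.4 and 72.1 in A, 116 and 134 in B6, 127 and 149 in CAST, 100.5, 113 and 92.2 in NOD, 116, 119 and 65.5 in NZO, 84.2, 95.2 and 87.98 in PWK, 83.9, 90.1 and 83.9 in WSB. Control libraries of the F1 crosses had a Ergic1 signal of 131, 131 and 117 in x129, 158 and 163 in xCAST, 133, 129 and 132 in xNOD, 123, 131 and 104 in xNZO, 105, 138 and 109 in xWSB. TM libraries had 83.2, 84.00 and 78.7 in x129, 96.7, 97.4 and 68.9 in xCAST, 54.2 and 55.4 in xNOD, 98.6, 70.5 and 94.3 in xNZO, 69.2, 61.6 and 47.6 in xWSB. The TM libraries lay below the controls in 5 of the 8 strains and in all 5 crosses. The background was 3.32% of all genes for the crosses and was not computed for 5 of the 8 strains. In A, control replicate 1 stood at 55.8, below the other controls at 163 and 164 and below all 3 TM libraries. In CAST and NOD the groups overlapped with no single library standing alone. The mean change was -0.56 ± 0.10 in the founders (adjusted p = 4.04e-05) and -0.84 ± 0.07 in the crosses (adjusted p = 1.21e-09), and -0.59 and -0.90 without the libraries that lay far from their group. Ergic1 was lowered in B6, PWK, WSB, x129, xCAST and xNOD, from 0.418 of the control level in xNOD to 0.651 in x129. With the GC and length trend removed no genotype kept the call, and the mean change was -0.36 and -0.58, past the threshold in both sets. Ergic2 and Ergic3 changed by 0.07 ± 0.04 and -0.14 ± 0.06 in the founders and passed in neither set. Ergic2 was lowered in the founders with the trend removed (-0.18, adjusted p = 0.000284).

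**Figure D3:**
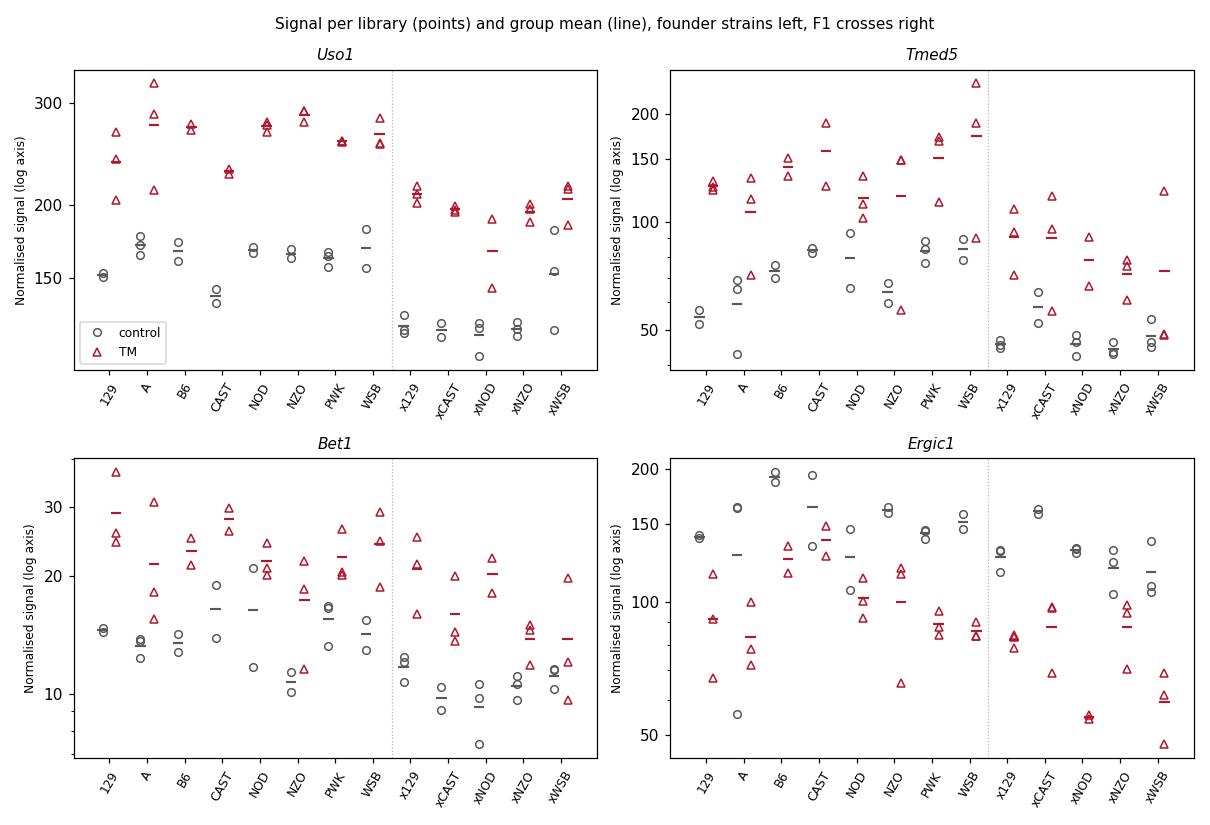
Normalised signal per library on a log axis for Uso1, Tmed5, Bet1 and Ergic1 in the 8 founder strains and, right of the dotted line, the 5 F1 crosses. Grey circles are control and red triangles TM libraries, with a line at each group mean. Uso1 rises without overlap in every genotype, and Ergic1 in A shows 1 control library at 55.8 under all TM libraries.

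All 5 SNARE and tether genes were raised in the founders and 4 of them in the crosses. These proteins bring ER-derived vesicles to the Golgi and fuse them there. The median change of the group was 0.45 and 0.39. Beside these 5 genes, 20.5% of all genes were raised in the founders and 16.9% in the crosses. Once the GC and length trend was removed, 3 of the 5 (Bet1, Stx5a and Uso1) were raised in each set, and the median change was 0.17 in the founders and 0.20 in the crosses.

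Uso1, also called p115, is the long coiled-coil tether that links incoming vesicles to the Golgi. Without TM, the founder strains showed Uso1 at 150.3 and 153 in 129, 171, 177 and 164 in A, 173 and 160.2 in B6, 143 and 136 in CAST, 169.8 and 166 in NOD, 168 and 162 in NZO, 157, 164 and 166 in PWK, 156 and 182 in WSB. The treated libraries showed 205, 240.2 and 268 in 129, 324, 212 and 287 in A, 276 and 269.8 in B6, 231 and 226 in CAST, 275, 278 and 268 in NOD, 290.1, 291 and 278 in NZO, 258, 258 and 257 in PWK, 283, 256 and 255 in WSB. Between strains the mean control level moved little, by 1.22 fold from CAST, the lowest, to A, the highest. Single control libraries ran from 136 in CAST to 182 in WSB. In control libraries of the F1 crosses, the normalised signal of Uso1 was 120.4, 129 and 122 in x129, 119 and 125 in xCAST, 123, 125 and 109.95 in xNOD, 119, 126 and 123 in xNZO, 122, 154 and 181 in xWSB. With TM it was 216, 202 and 209.5 in x129, 197, 199.7 and 195 in xCAST, 144 and 189.7 in xNOD, 201, 197 and 187 in xNZO, 185, 214 and 216 in xWSB. Every TM library lay above every control library of its genotype in all 13 genotypes. In all founder strains 4.12% of all genes did so, and in all crosses 4.53%. The mean rise was 0.69 ± 0.04 in the founders (adjusted p = 2.29e-14), the smallest adjusted p of the list, and 0.61 ± 0.05 in the crosses (adjusted p = 3.61e-09). Among the founder strains it ran from 0.64 in 129 to 0.79 in NZO, a narrow range beside the 0.57 to 1.21 of Tmed5. Uso1 was induced within the genotype in B6, CAST, NOD, PWK, x129 and xNZO, by 1.59 to 1.69 fold. With the GC and length trend removed it was raised by 0.58 in the founders (adjusted p = 5.21e-17) and 0.55 in the crosses (adjusted p = 3.69e-11), the largest change of the list in each set in that setting apart from the fall of Ergic1 in the crosses. Its promoter held 6 short sites CCACG, in capitals on either strand, and neither the UPRE core nor an ERSE. It is printed because Uso1 had the smallest adjusted p of the list.
Uso1, chr5:92137688-92137987, plus strand: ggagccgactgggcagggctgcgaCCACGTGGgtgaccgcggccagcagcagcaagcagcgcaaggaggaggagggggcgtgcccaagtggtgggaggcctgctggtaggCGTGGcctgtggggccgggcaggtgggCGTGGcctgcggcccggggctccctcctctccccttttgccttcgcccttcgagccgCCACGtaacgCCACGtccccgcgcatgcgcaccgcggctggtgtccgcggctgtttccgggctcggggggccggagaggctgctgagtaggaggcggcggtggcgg
The short sites began between 226 and 46 bases before the start, and 2 of them overlap to form a palindrome.

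Bet1, a SNARE of ER-to-Golgi vesicles, had low signal. The normalised signal of Bet1 in the founder strains was 14.7 and 14.4 in 129, 13.6, 12.3 and 13.8 in A, 14.2 and 12.8 in B6, 19.01 and 13.8 in CAST, 20.99 and 11.7 in NOD, 11.3 and 10.1 in NZO, 13.2, 16.8 and 16.5 in PWK, 12.9 and 15.4 in WSB without treatment. After TM the libraries stood at 37.02, 24.4 and 25.8 in 129, 18.2, 30.9 and 15.5 in A, 21.3 and 24.96 in B6, 29.8 and 26.1 in CAST, 24.3, 20.98 and 20.1 in NOD, 21.9, 18.6 and 11.6 in NZO, 26.4, 20.5 and 20.2 in PWK, 29.3, 24.6 and 18.8 in WSB. Groups overlapped in NOD alone, where control replicate 1 stood at 20.99, above 2 of the 3 TM libraries. The mean rise was 0.69 ± 0.09 (adjusted p = 3.26e-07) in the founders and 0.65 ± 0.10 (adjusted p = 8.95e-06) in the crosses. It was induced in B6 (1.71 fold), x129 (1.75 fold) and xNOD (2.19 fold). With the trend removed it was induced in no genotype, and the mean rise was 0.17 and 0.20 and passed in both sets (adjusted p = 0.00622 and 0.00423).

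Stx5a, the syntaxin with which Bet1 pairs at the Golgi, rose in every strain. Control libraries of the founder strains had a Stx5a signal of 63.03 and 54.9 in 129, 44.98, 54.2 and 54.1 in A, 61.2 and 57.5 in B6, 40.4 and 42.3 in CAST, 58.5 and 58.1 in NOD, 65.4 and 61.4 in NZO, 70.3, 60.6 and 59.4 in PWK, 60.4 and 62.4 in WSB. TM libraries had 74.2, 95.96 and 79.7 in 129, 76.1, 109.5 and 75.3 in A, 75.3 and 82.9 in B6, 47.5 and 52.3 in CAST, 83.6, 86.04 and 79.96 in NOD, 82.8, 87.7 and 81.6 in NZO, 85.1, 74.3 and 70.6 in PWK, 94.1, 76.7 and 96.04 in WSB. The groups of Stx5a did not overlap in any founder strain (4.12% of all genes rose likewise). Its average rise was 0.45 ± 0.05 (adjusted p = 6.5e-09) and 0.39 ± 0.06 in the crosses (adjusted p = 5.62e-06), and with the trend removed it was 0.42 and 0.39. Sec22b, a SNARE on the vesicle, rose by 0.25 ± 0.05 and 0.24 ± 0.06, and with the trend removed these were -0.02 and 0.02. Gosr2 rose by 0.11 ± 0.03 in the founders and changed by 0.01 ± 0.04 in the crosses.

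In the Arf cycle, Arf4 and Arfgap3 were raised in the founders, and Arfgap3 was raised and Gbf1 lowered in the crosses. All-gene shares were 20.5% raised in the founders, and 16.9% raised and 18.7% lowered in the crosses. Once the trend was removed, Arfgap3 was raised in both sets and Arfgap1 in the crosses, and none was lowered. Arfgap3, which triggers GTP hydrolysis on Arf at the Golgi, rose by 0.24 ± 0.04 in both sets (adjusted p = 1.27e-05 and 8.54e-05), and by 0.29 and 0.30 with the trend removed. Arf4 rose by 0.31 ± 0.06 in the founders and was above control in all 13 genotypes, but its change was 0.04 with the trend removed. Gbf1, the exchange factor that loads Arf with GTP, changed by -0.25 ± 0.10 in the founders (adjusted p = 0.0273) and by -0.44 ± 0.07 in the crosses (adjusted p = 6.61e-06), and was lowered in xNOD to 0.515 of the control level. With the trend removed the change in the crosses was -0.12 (adjusted p = 0.109). Arfgap1 changed by -0.06 ± 0.06 and 0.02 ± 0.07.

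Many of these genes come in pairs of paralogs, and the ratio of a pair within a library does not depend on how libraries were scaled. In 8 of the 10 pairs the log2 ratio changed with TM in the founders. This was a permutation test with labels permuted within strain (two-sided, 100000 permutations, adjusted over the 10 pairs). In the crosses the pairs that passed were Sec23b/Sec23a, Copz2/Copz1, Kdelr2/Kdelr1 and Arfgap3/Arfgap1. How often pairs of unrelated genes would pass was not tested. The smallest p the permutations can give is 1e-05. How reads shared by paralogs were counted is not given in the sources used here.

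Sec23b rose relative to Sec23a by 0.41 ± 0.07 in the founders, in 8 of 8 strains (adjusted p = 2.5e-05), and by 0.51 ± 0.08 in the crosses, in 5 of 5 (adjusted p = 0.0001). The ratio changed from 0.13 in CAST to 0.70 in PWK among the founders. It was 0.41 and 0.53 with the GC and length trend removed. Arfgap3 rose relative to Arfgap1 by 0.30 ± 0.05 and 0.22 ± 0.07, in all 13 genotypes (adjusted p = 2.5e-05 and 0.00693), and with the trend removed by 0.19 and 0.08, of which the latter did not pass (adjusted p = 0.305). The ratio of Copz2 to Copz1 changed by -0.29 ± 0.06 and -0.21 ± 0.07, in all 13 genotypes (adjusted p = 2.5e-05 and 0.0095), and by -0.33 and -0.28 with the trend removed.

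Copg2 rose relative to Copg1 by 0.31 ± 0.06 in 8 of 8 strains (adjusted p = 2.5e-05), and by 0.19 ± 0.09 in 4 of 5 crosses, where the test did not pass (adjusted p = 0.0584). With the trend removed the founder change was 0.05 (adjusted p = 0.392). Kdelr2 rose relative to Kdelr1 by 0.23 ± 0.08 and 0.34 ± 0.08 (adjusted p = 0.0015 and 0.00035), and with the trend removed by 0.05 and 0.16, past the threshold in neither set. Sar1b rose relative to Sar1a by 0.15 ± 0.05 and Sec24a relative to Sec24b by 0.31 ± 0.09 in the founders (adjusted p = 0.00356 and 0.0015), and neither passed with the trend removed. In the crosses these ratios changed by 0.16 ± 0.05 and 0.25 ± 0.10 and did not pass (adjusted p = 0.0103 and 0.0203). Sec24d rose relative to Sec24c by 0.21 ± 0.06 in the founders (adjusted p = 0.00024) and changed by 0.08 ± 0.07 in the crosses (adjusted p = 0.234). Kdelr3 against Kdelr1 (-0.0018 ± 0.071) and Lman1 against Lman2 (0.03 ± 0.05) did not pass in the founders. With the trend removed, the ratio of Lman1 to Lman2 changed by -0.28 in the founders (adjusted p = 5e-05) and -0.25 in the crosses (adjusted p = 0.00015).

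**Figure D4:**
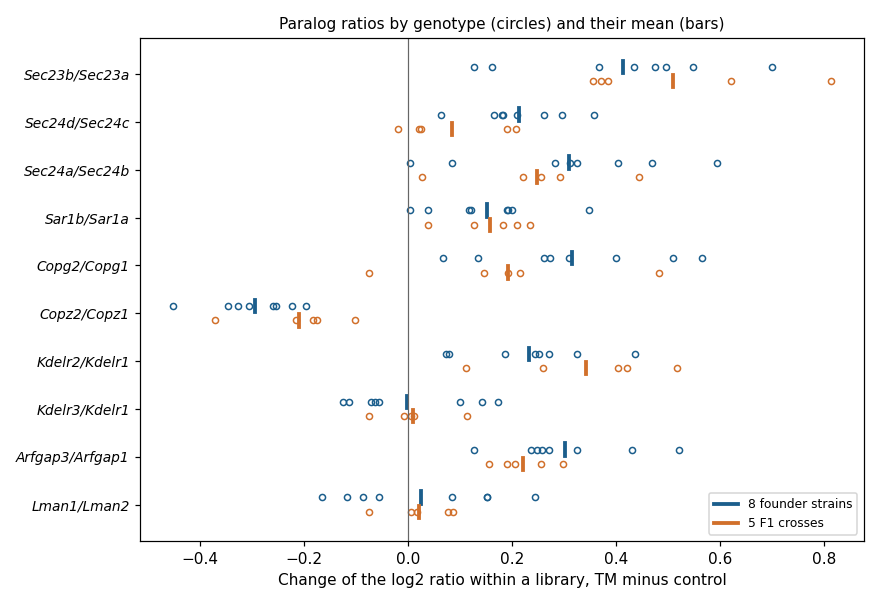
Change with TM of the log2 ratio of paralogs within a library, 1 circle per genotype and a bar at the mean, for the 8 founder strains (blue) and the 5 crosses (orange). All 13 circles of Sec23b/Sec23a lie right of 0, and all 13 of Copz2/Copz1 left of it.

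The strains differed in the level of some members without treatment. Among founder controls, 7 members differed at an adjusted p below 0.01 with at least 1.5 fold between the highest and the lowest strain, against 36.1% of all genes: Copg1, Copg2, Copz2, Lman1, Mcfd2, Stx5a and Arfgap3. CAST was the lowest strain for 22 of the 45 members and PWK the highest for 16, where over all genes CAST was the lowest for 17.5% and PWK the highest for 15.8%.

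Copz2, a zeta subunit of COPI, differed most. Its control signal was 57.8 and 50.03 in 129, 67.2, 49.7 and 47.6 in A, 55.9 and 51.3 in B6, 10.2 and 8.24 in CAST, 47.5 and 40.6 in NOD, 63.99 and 67.8 in NZO, 56.4, 51.2 and 54.8 in PWK, 51.2 and 49.7 in WSB. Both CAST libraries lay below every control library of the other strains, and the highest strain, NZO, was 7.12 fold above it (adjusted p = 2.59e-10). With TM, CAST stayed lowest at 9.79 and 6.64. In the crosses the control signal was 49.3, 47.4 and 55.9 in x129, 31.7 and 25.5 in xCAST, 41.3, 45.4 and 39.8 in xNOD, 56.4, 50.2 and 35.8 in xNZO, 106, 75.4 and 65.5 in xWSB. The xCAST libraries were the lowest there as well, with the highest cross, xWSB, 2.83 fold above them.

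Copg2 and its paralog Copg1 had opposite extremes in PWK. The Copg2 control signal was 17.4 ± 1.21 (SD, n = 3) in PWK and 32.5 ± 0.904 (SD, n = 2) in B6, the highest, and 32.5 in CAST lay beside it. For Copg1 PWK was the highest, at 566 ± 17.2 (SD, n = 3), and NOD the lowest, at 347 ± 36.0 (SD, n = 2). Arfgap3 was also highest in PWK, at 90.6 ± 1.02 (SD, n = 3), and lowest in CAST, at 45.6 ± 4.26 (SD, n = 2). Mcfd2 ran from 122 ± 0.706 in CAST to 220.3 ± 13.7 in NZO (SD, n = 2 each), Stx5a from 41.4 in CAST to 63.4 in NZO and 63.5 in PWK, and Lman1 from 119 in NOD to 184 in PWK. In the crosses Mcfd2 stood at 241 ± 5.92 (SD, n = 3) in xWSB and at 124 to 141 in the others.

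The change with TM itself was compared between genotypes with an interaction test. No member passed in the founders at an adjusted p below 0.01 in limma, nor at an unadjusted p below 0.05, where 0.174% and 3.91% of all genes did. The smallest unadjusted p of a member was 0.131, and edgeR called 0 as well. In the crosses 0 members passed after adjustment (0.0547% of all genes) and 4 had an unadjusted p below 0.05 (6.15% of all genes), namely Sec31a, Gbf1, Ergic1 and Copa, which each had their lowest change in xNOD. A p that misses the threshold does not show that the genotypes respond alike. Above control in all 13 genotypes were 15 members, and 2, Sec13 and Ergic1, lay below control in all 13. Of the genes tested in both sets 14.2% and 15.5% did so. Within a set, 19 members were above control in all founder strains (18.7% of all genes) and 19 in all crosses (20.7%), while 20% and 24.8% of all genes lay below. For 8 members in the founders and 3 in the crosses, TM libraries lay above all controls in at least 1 genotype and below all in another, as 16.7% and 4.98% of all genes did.

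**Figure D5:**
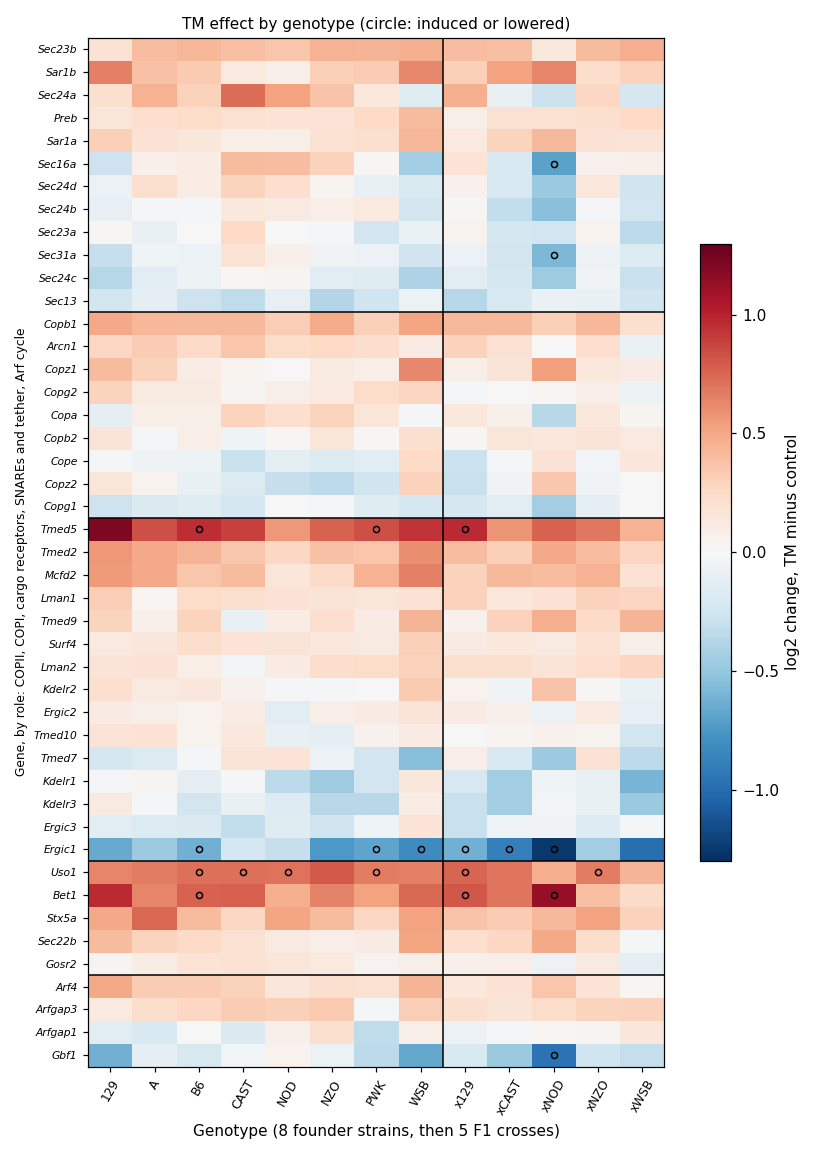
Log2 change with TM of the 45 genes (rows, by role) in the 8 founder strains and 5 F1 crosses (columns), red for higher and blue for lower with TM. Circles mark genes induced or lowered by at least 1.5 fold at an adjusted p below 0.01 within the genotype. The rows of Tmed5, Uso1 and Bet1 are red and that of Ergic1 blue in every column.

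Within single genotypes, 3 members were induced in at least 1 founder strain and 1 was lowered, against 8.15% and 7.85% of all genes. In at least 1 cross 3 were induced and 4 lowered, against 7.05% and 5.47%. The members induced were Uso1, Tmed5 and Bet1 in both sets, and Ergic1 was lowered in both, joined by Sec31a, Sec16a and Gbf1 in xNOD. With the GC and length trend removed, Uso1 was the only one of these with a call in any genotype (B6, NOD, WSB, x129, xCAST and xNZO), Preb and Lman2 were induced in WSB, and no member was lowered. In 1 fit over all founder libraries, which shares the estimate of the spread, Uso1 was induced in all 8 strains, Tmed5, Bet1 and Ergic1 passed in none, and Mcfd2, Tmed2 and Stx5a were induced in 1 strain each. Counts of members induced were 3 in B6, 2 in PWK and 1 each in CAST and NOD, with 5.04%, 6.36%, 2.54% and 1.45% of all genes induced there. In 129, A, NZO and WSB the count was 0, with 0.315%, 0.346%, 0.32% and 2.85% of all genes induced. The crosses had 3 members induced in x129 (4.88%), 1 in xNOD (3.69%) and 1 in xNZO (1.44%), and 0 in xCAST (2.52%) and xWSB (0.185%). In the lower direction 1 member each passed in B6 (3.22%), PWK (4.3%), WSB (4.2%), x129 (1.36%) and xCAST (1.2%), and 4 in xNOD (4.6%). No member was lowered in 129 (0.00787%), A (0.00786%), NZO (0.0078%), CAST (0.478%), NOD (0.165%), xNZO (0.152%) or xWSB (0.0161%). The genotypes thus differed widely in how many genes of any kind passed.

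Of the other genes of ER-Golgi traffic, 64 of 66 listed were tested, and 21 were raised and 9 lowered in the founders, with a median change of 0.05, and 15 and 12 in the crosses. Over all genes 20.5% were raised and 21.9% lowered in the founders, and 16.9% and 18.7% in the crosses, so the share lowered in the crosses, 18.75% of the list, was close to that of all genes. Mia2 and Mia3, which fit the COPII coat to bulky cargo, rose by 0.58 and 0.30 in the founders, and Scfd1, which binds Stx5a and helps SNAREs assemble, by 0.54. Cog3, of the tethering complex within the Golgi, rose by 0.55. The small GTPase Rab1b was lowered, with a mean change of -0.40, while its paralog Rab1a rose by 0.35. Nsf, the ATPase that takes spent SNARE complexes apart, was lowered, by an average of -0.32. In the clathrin, adaptor and retromer list, which serves traffic past the Golgi, 9 of 31 (29.0%) were raised and 9 lowered in the founders, a median change of -0.05. The genes of both lists named here were chosen after their values were seen.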

How the data were processed

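The report covers 68 mRNA libraries (total RNA, single-end reads, Illumina TruSeq), in 13 deposited tables. The submitters' processing notes name FastQC, Trimmomatic, TopHat 1.4.1 and edgeR, and the build GRCm38 (mm10). The authors aligned to strain-specific genomes, scaled with TMM in edgeR and dropped libraries that did not cluster with their condition, which narrows the spread within groups. The deposited signal is called FPKM by the authors, but in all 68 libraries every value is a whole multiple (within 0.05 reads) of 1 step per library. It is thus reads per gene without division by length. Recovered reads were used for 66 libraries, and PWK TM replicate 2 and WSB TM replicate 1 were left out of the edgeR fits. The tests had been designed for FPKM on a log scale and were kept. In the crosses 3 lines name no gene and hold 15.5 to 24.1% of the signal, and were left out.

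Changes were tested with limma 3.58.1 in R 4.3.3 (eBayes with trend) on log2(value + 0.1), over genes with at least 0.5 in at least 2 libraries, with Benjamini-Hochberg adjustment over all genes. Such fold changes understate the change of low genes. Members raised or lowered on average had an adjusted p below 0.01; induced genes also changed by at least 1.5 fold. Exon lengths, and the GC content of the longest transcript of each gene, came from GENCODE M21. Alternatives were edgeR 4.0.16 on recovered reads, FDR 5%, 1 fit over all libraries, library weights, no variance trend, a pseudocount of 1, no filter or one on a mean of 2, scaling by median of ratios, a block for the replicate number and leaving out each library. Chosen after seeing the data were the length and GC correction and leaving out 3 libraries per set. Scripts were tested on simulated data with 1 fixed spread for all genes, which may differ from the real spread. For 1.25 fold, the limma fit over a set recovered 58.2% of changed genes in the founders and 40.3% in the crosses. For 1.5 fold it recovered 100% and 95.5%. Within a genotype limma recovered 0% of 1.5 fold changes in 129 and 19.4% in x129, the only ones simulated. Members not called can thus have changed. The members, lists and tests were chosen with earlier results of these data known. Named were members that passed within a genotype or in control levels, the 10 largest and 5 smallest founder changes and the paralog pairs, with values by library for the 8 largest.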

Additional observations from a re-analysis of the deposited data

Results flagged for a closer look

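For 8 members in the founders and 3 in the crosses, every TM library lay above every control in at least 1 genotype and every TM library below in another. Of all genes, 16.7% in the founders and 4.98% in the crosses met the same rule, shares close to those of the members. These differences between genotypes were not tested pair by pair, and the interaction test over all genotypes called none of them after adjustment. In the founders the log2 change differed by 0.86 for Sec16a and by 0.72 for Tmed7 between CAST, the higher, and WSB, and by 0.44 for Sec31a between the same strains. It differed by 0.55 for Cope and by 0.49 for Ergic3 between WSB, the higher, and CAST. The difference was 0.64 for Copz2 between WSB and NZO, 0.40 for Arfgap1 between NOD and PWK and 0.29 for Sec24d between B6 and WSB. In limma the unadjusted interaction p-values of these members ran from 0.297 for Arfgap1 to 0.884 for Sec24d. In the crosses the change of Copa differed by 0.49 between x129 and xNOD, that of Copz2 by 0.65 between xNOD and x129 and that of Gosr2 by 0.20 between xNZO and xNOD. The interaction test of Copa in limma had an adjusted p of 0.782. WSB and xNOD, which recur here, also had the most negative relation of change with exon length, and its part in these differences was not tested.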

How the results depend on the processing

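Replicate numbers were shared by 29 pairs of libraries, and deviations correlated by over 0.1 in 7 of them (-0.53 to 0.31). With groups of 2 or 3 libraries, such correlations cannot show whether same-numbered libraries were paired. All 3 pairs of xWSB were over 0.1 (0.26, 0.16 and 0.12), and in that cross no member passed with or without the block. The pairs of NZO were over 0.1 too (0.19 and 0.22). With the replicate block 11 members were raised in the founders instead of 21, and 10 with the block and the length and GC trend removed. The block uses the 16 same-numbered pairs of the founders, since a library without a partner adds nothing to the TM effect. Over all genes the share raised in the founders fell with the block from 20.5% to 11.8%, and was 10.8% with the block and the trend removed. Of the 15 members raised in both sets, the 9 that also passed in both with the block were Arfgap3, Bet1, Copb1, Mcfd2, Sec23b, Stx5a, Tmed2, Tmed5 and Uso1, and of the 3 lowered in both only Ergic1 passed. With block, trend removal and both, 6 were raised in both sets in every fit (Arfgap3, Copb1, Mcfd2, Stx5a, Tmed5 and Uso1) and 0 lowered. Members lowered in the founders, 3, became 7 with library weights, 5 with the trend removed, 1 with block and trend and 6 without the 3 far libraries. Of all genes, 27.6% were lowered in the founders with the weights and 9.38% with block and trend. In the crosses 7 lowered became 4 with the trend removed, with and without the block. Of all genes 15.4% were then lowered there with the block and 17.1% without it. Members past the control level test, 7, became 15 with library weights. The share of all genes past that test with the weights was not computed. Within genotypes, members induced in a founder strain, 3, became 1 without the variance trend and 8 at FDR 5%, with the length and GC trend removed were again 3 but shared only Uso1, and the 1 lowered became 0 in 1 fit over all libraries, 0 with the trend removed and 2 at FDR 5%. In the crosses the 3 induced became 1 without the variance trend and 1 with the length and GC trend removed, and the 4 lowered became 1, 0 with the latter, and 2 in edgeR. The share of all genes called within genotypes in these settings was not computed. The cause of these changes in counts was not tested.

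With the trend removed, the founder mean change turned to -0.024 for Copg2, -0.015 for Sec22b and -0.18 for Ergic2 (with the block, -0.037 for Copg2 and -0.012 for Sec22b), and that of Sec31a in the crosses to 0.0031. Paralog ratio changes then were 0.14 for Sec24a/Sec24b, -0.038 for Sar1b/Sar1a, 0.051 for Copg2/Copg1, 0.054 for Kdelr2/Kdelr1 and -0.28 for Lman1/Lman2 in the founders, and 0.16 for Kdelr2/Kdelr1, 0.084 for Arfgap3/Arfgap1 and -0.25 for Lman1/Lman2 in the crosses. With the block, Sec24a/Sec24b (0.26) and Sar1b/Sar1a (0.15) in the founders and Copz2/Copz1 (-0.19) and Arfgap3/Arfgap1 (0.21) in the crosses no longer passed.

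Leaving out each library in turn gave 20 to 22 members raised and 2 to 5 lowered in the founders (5 without A control replicate 1), 15 to 17 and 6 to 9 in the crosses, and 5 to 9 past the control level test. Within genotypes it gave 2 to 6 induced (6 without CAST control replicate 3 or WSB TM replicate 3, 5 without NOD control replicate 3) and 1 to 2 lowered (2 without WSB TM replicate 3) in the founders, and 3 to 7 induced (7 without xNOD TM replicate 2) and 1 to 6 lowered (1 without any xNOD control) in the crosses. Where a ratio crossed the threshold, its change ran from 0.12 to 0.18 for Sar1b/Sar1a and 0.20 to 0.28 for Kdelr2/Kdelr1 in the founders, and in the crosses from -0.24 to -0.17 for Copz2/Copz1, lost in 17 of 28, 0.19 to 0.25 for Arfgap3/Arfgap1, 0.13 to 0.18 for Sar1b/Sar1a, 0.19 to 0.29 for Sec24a/Sec24b and 0.15 to 0.24 for Copg2/Copg1. Of the members' own values 3910 of 4050 stayed on their side of the threshold with no change of direction that passed it. Among these 3910, 111 that had not passed crossed 0, and so changed direction, without passing.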
